A study of Homo sapiens with 6 samples.

Results

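SULT1C2 and the cytosolic sulfotransferases, the family of enzymes whose gene symbols begin with SULT, were followed here in MDA-MB-453 cells cultured with or without 25(OH)D. The members were chosen by name, as the rows of the deposited count table that carry 1 of 10 gene symbols: SULT1C2, SULT1C3, SULT1C4, SULT1A1, SULT1A2, SULT1A3, SULT1B1, SULT1E1, SULT2A1 and SULT2B1. Of these 10 symbols, 7 had a row among the 33451 genes of the table, and 6 of the 7 rows passed the low-count filter. SULT1C3, SULT1C4 and SULT1B1 had no row in the table used here, in which every listed gene has at least 1 count. SULT1C2 was picked for its rise in this very comparison, so its values below are a description without a test. The other members were taken for their family name, and of these SULT1E1 is also given without a test, since it was high enough to be tested in control alone.

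The MDA-MB-453 line was derived from a human breast cancer, and 25(OH)D is the main circulating form of vitamin D. Cells were grown for 5 days in medium with 10% fetal bovine serum and either 100 nM 25(OH)D (EG) or 0.1% alcohol as its solvent (CG, called control here), and 3 mRNA libraries were made from each group. All 6 libraries come from this single line. The libraries held between 33268860 and 40928176 counts, and the floor of 3 counts was worth 0.0720 to 0.0921 CPM (counts scaled to a common library size by TMM factors). The labels do not say whether the replicates were separate cultures, so p-values measure the spread between these samples.

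Cytosolic sulfotransferases move a sulfate group from the donor PAPS to a hydroxyl or amino group of a small molecule. The sulfated product is more soluble in water and, for steroid hormones, no longer activates its receptor. The SULT1 enzymes act mainly on phenols, catecholamines, thyroid hormones and oestrogens, and the SULT2 enzymes act on hydroxysteroids such as dehydroepiandrosterone and cholesterol. Vitamin D receptor, which binds DNA with a retinoid X receptor partner at a direct repeat of a hexamer spaced by 3 bases (DR3), is known as one of several nuclear receptors that act on SULT genes in liver and gut.

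Several members are close copies of each other, which bears on how reads can be assigned to them. In the coding sequences of GENCODE 29 (GRCh38), SULT1A1 was 96.8% identical to SULT1A2, with 28 of 885 bases different, and 94.5% identical to SULT1A3, with 49 bases different, while SULT1A3 and SULT1A4 were identical over the whole coding sequence. SULT1C2 stood apart, at 69.1% identity with SULT1C4, its nearest relative among the genes compared, 63.2% with SULT1C3 and 61.4% with SULT1A1. The following 60 bases, positions 394 to 453 of each coding sequence, lie in the exons of 4 genes on chromosome 16 and are shown because they hold the most differences among these copies. They are written 5′ to 3′ on the coding strand, with capitals where a gene differs from SULT1A1.
SULT1A1: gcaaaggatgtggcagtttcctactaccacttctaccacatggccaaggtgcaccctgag
SULT1A2: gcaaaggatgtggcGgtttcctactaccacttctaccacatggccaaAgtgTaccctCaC
SULT1A3: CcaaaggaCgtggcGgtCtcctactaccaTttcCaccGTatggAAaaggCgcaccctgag
SULT1A4: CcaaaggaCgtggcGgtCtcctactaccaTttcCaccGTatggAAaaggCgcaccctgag
A read over this window told SULT1A2 from SULT1A1 at 5 positions and SULT1A3 from SULT1A1 at 11, and could not tell SULT1A3 from SULT1A4.

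Every 150-base stretch of the GENCODE 29 transcripts, the length of a read here, was also looked up in the transcripts of all other genes. SULT1C2 shared 0 of its 9254 stretches with another gene, SULT1A2 shared 0 of 2902 and SULT2B1 shared 0 of 2666. SULT1A1 shared 2.6% of its stretches, mostly with a pseudogene on the same chromosome. SULT1E1 shared 12.3%, all with the single gene AC108941.2. SULT1A3 shared 77.6%, and 71.6% with SULT1A4 alone, while SULT1A4 shared 93.3%, so most reads of these last 2 genes cannot be assigned to 1 of them by sequence. SULT1A3 also had 1811 of its 2561 exon bases in common with the readthrough gene SLX1A-SULT1A3, and SULT1A4 had 1687 of 1979 in common with SLX1B-SULT1A4.

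SULT1C2, a SULT1 enzyme that acts on small phenols and is best known from stomach, kidney and fetal tissue, lies on the plus strand of chromosome 2 (GRCh38, chr2:108288639-108309915). Its counts were 0, 0 and 0 in control and 130, 130 and 140 with 25(OH)D, which is 3.70, 3.38 and 4.30 CPM. The control libraries thus all lay at 0 and the 25(OH)D libraries were close to each other, with a mean of 3.79 ± 0.465 CPM (SD, n = 3). Against 3 counts in each control library, the level was at least 48.9-fold higher with 25(OH)D. Omitting single libraries moved this bound between 45.6 and 51.5. A count of 0 in each library does not show that the transcript was absent, and in bulk RNA fewer cells with a transcript and less of it per cell cannot be told apart.

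Across all 18183 genes tested with the quasi-likelihood test of edgeR, 17.3% were called higher with 25(OH)D and 16.5% lower at a Benjamini-Hochberg adjusted p under 0.05. With an absolute log2 fold change over 1 as well, these shares were 3.69% and 2.3%. CPM values of control and 25(OH)D did not overlap in 45.7% of the genes tested. These shares are the background against which the calls below stand. A call in either direction without a fold limit was thus common in this comparison, while a call past the fold limit was not.

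The phenol sulfotransferase SULT1A1 was the most abundant member in counts and rose 3.05-fold. This enzyme acts on a wide range of small phenols and also on oestrogens, and lies at chr16:28605196-28623625 on the minus strand. Its counts were 698, 811 and 742 in control and 2068, 2364 and 1888 with 25(OH)D. In CPM the control libraries lay at 16.8, 21.4 and 20.2 and the 25(OH)D libraries at 58.8, 61.5 and 57.9, well apart from each other. Mean CPM was 19.5 ± 2.42 in control and 59.4 ± 1.84 with 25(OH)D (SD, n = 3), and the log2 fold change was 1.61 (SE 0.0800, adjusted p = 1.32e-09).

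SULT1A2, its close copy with a similar substrate range, lies on the same strand at chr16:28591943-28597109 and was much less abundant. Its counts were 59, 68 and 54 in control and 153, 123 and 126 with 25(OH)D. All 3 libraries with 25(OH)D were above all 3 control libraries. The mean rose from 1.56 ± 0.207 to 3.81 ± 0.579 CPM, a log2 fold change of 1.28 (SE 0.193, adjusted p = 1.23e-04). The count of SULT1A1 over that of SULT1A2 was 11.8, 11.9 and 13.7 in control, and with 25(OH)D it was 13.5, 19.2 and 15.0, so the ranges of this ratio overlapped between the groups.

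Between SULT1A1 and SULT1A2 lies the pseudogene with which SULT1A1 shares 219 of its 150-base stretches, listed as RP11-666O2.4 in the count table and as AC020765.3 in GENCODE 29. Its counts were 100, 67 and 55 in control and 142, 180 and 176 with 25(OH)D, a log2 fold change of 1.31 (adjusted p = 1.29e-04). The part that reads shared with this pseudogene had in the values of SULT1A1 was not tested, and the pseudogene had fewer counts than SULT1A1 in every library. Of the 9 listed genes that start within 100 kb of the start of SULT1A1, 7 were tested, of which 3 were higher, SULT1A2 and the pseudogene among them, and 2 were lower. Over all genes tested, 17.3% were called higher and 16.5% lower, and these counts among 7 genes carry no test.

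SULT1A3, the catecholamine sulfotransferase whose best known substrate is dopamine, was not called in either direction. This gene lies at chr16:30199228-30204310 on the plus strand. Its counts were 265, 341 and 296 in control and 292, 297 and 256 with 25(OH)D, and the CPM values of the groups overlapped. The log2 fold change was 0.03 (SE 0.128, adjusted p = 0.882), and its sign turned with the scaling and with the library omitted. SULT1A4, which encodes the same protein from a second copy at chr16:29459889-29464976, had counts of 353, 307 and 284 in control and 308, 336 and 284 with 25(OH)D, a log2 fold change of 0.11 (SE 0.0979, adjusted p = 0.437). In CPM its 25(OH)D libraries, at 8.76, 8.74 and 8.72, all lay above the control libraries, at 8.48, 8.12 and 7.71. The readthrough genes that overlap them had log2 fold changes of 0.05 for SLX1A-SULT1A3 (adjusted p = 0.652) and 0.02 for SLX1B-SULT1A4 (adjusted p = 0.849). None of these 4 overlapping genes was therefore called, although 3 of them are not members.

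SULT1E1, the oestrogen sulfotransferase with high affinity for oestradiol, had fewer counts with 25(OH)D than in control and lay close to the floor. In the table its exons span chr4:69810780-69860152 on the minus strand, a longer span than chr4:69841212-69860152 in GENCODE 29. The added part lies past the 3′ end of that model, and where in the span the counts lay was not tested. Its counts were 21, 21 and 10 in control and 0, 2 and 0 with 25(OH)D. In CPM the control libraries held 0.504, 0.555 and 0.272 and the 25(OH)D libraries 0, 0.0520 and 0, so that every library with 25(OH)D was at or under 3 counts. The 52 counts of control against 2 counts with 25(OH)D were a ratio of 23.7 after scaling to library size, given as a description. Against 3 counts in each 25(OH)D library, the control level was 5.21-fold higher. SULT1E1 and SULT1C2 passed the low-count filter only through the group in which they were high. Even values made up 66.8% to 69.8% of all counts from 1 to 10 in these libraries, so a count of 2 may be the mates of 1 read pair.

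Of the hydroxysteroid sulfotransferases, SULT2B1 rose and SULT2A1 was at the floor. SULT2B1, whose isoforms sulfate cholesterol and pregnenolone and which is known from skin and other epithelia, lies at chr19:48552075-48599425 on the plus strand. Its counts were 66, 48 and 42 in control and 350, 361 and 324 with 25(OH)D. The control libraries lay between 1.14 and 1.59 CPM and the 25(OH)D libraries between 9.39 and 9.96 CPM, so the groups were far apart. The mean rose from 1.33 ± 0.229 to 9.76 ± 0.324 CPM, a log2 fold change of 2.86 (SE 0.148, adjusted p = 2.10e-09). SULT2A1, the liver and adrenal enzyme that sulfates dehydroepiandrosterone and bile acids, had counts of 0, 0 and 2 in control and 0, 0 and 0 with 25(OH)D. It did not pass the filter and was given no fold, as both groups were at or under the floor.

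**Figure D1:**
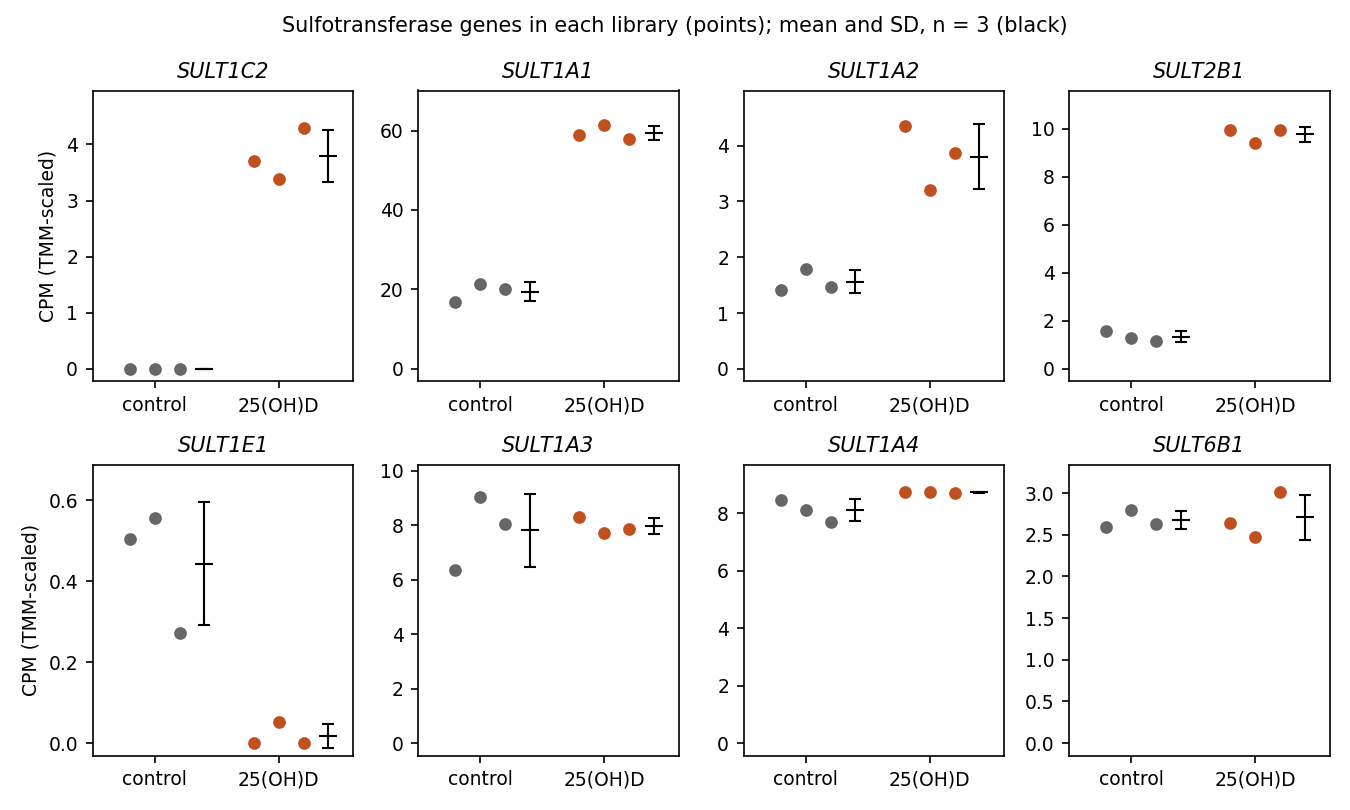
CPM, scaled by TMM factors, of 6 members and of SULT1A4 and SULT6B1 in each control (grey) and 25(OH)D (orange) library, on linear axes that differ between panels. Black marks give the mean and SD of 3 libraries. The 25(OH)D points lie above the control points for SULT1C2, SULT1A1, SULT1A2, SULT2B1 and, by less, SULT1A4, and below them for SULT1E1, while those of SULT1A3 and SULT6B1 overlap.

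The remaining genes of the family were at the floor or were not called. SULT6B1, a little studied member, had counts of 108, 106 and 97 in control and 93, 95 and 98 with 25(OH)D, and its groups overlapped in CPM (log2 fold change 0.01, SE 0.171, adjusted p = 0.960). It shares 81 of its 1325 exon bases with CEBPZOS on the opposite strand, and the strand setting of the counting is not given in the sources used here. SULT4A1, known from brain, had counts of 0, 0 and 0 in control and 0, 0 and 2 with 25(OH)D. The pseudogene SULT1C2P1, which starts 33.6 kb after SULT1C2, had 0, 0 and 0 in control and 0, 1 and 2 with 25(OH)D. SULT6B2P, SULT1C2P2, SULT1D1P and SULT1C5P had no row in the table used here.

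Levels of different genes were compared per length, as the deposited RPKM (reads scaled to gene length in kilobases and to the library total). Among the 7 members with a row, SULT1A3 came first in control at 3.09 ± 0.530 RPKM (SD, n = 3). SULT1A1 followed at 2.22 ± 0.273, then SULT1A2 at 0.696 ± 0.0938, SULT2B1 at 0.479 ± 0.0838 and SULT1E1 at 0.196 ± 0.0673. The ranges of neighbours in this order did not overlap, except for SULT2A1 and SULT1C2 at the bottom. With 25(OH)D the order was SULT1A1 at 6.56 ± 0.249, SULT2B1 at 3.40 ± 0.0905, SULT1A3 at 3.06 ± 0.106, SULT1A2 at 1.65 ± 0.242 and SULT1C2 at 0.444 ± 0.0520 RPKM, again without overlap between neighbours. SULT2B1 thus moved from below SULT1A2 to above SULT1A3, and SULT1C2 moved from the bottom to a place above SULT1E1. The RPKM of all 7 rows summed to between 5.87 and 7.54 in control and between 14.95 and 15.4 with 25(OH)D. SULT1A3 took 46.1% ± 2.59 of this sum in control and 20.2% ± 0.345 with 25(OH)D, while SULT2B1 went from 7.31% ± 2.10 to 22.5% ± 0.480 and SULT1A1 from 33.1% ± 1.01 to 43.4% ± 2.06. SULT1C2 made up 2.94% ± 0.357 of the sum with 25(OH)D. SULT1A4, not a member, stood above SULT1A3 in both groups, at 4.15 ± 0.213 RPKM in control and 4.35 ± 0.0330 with 25(OH)D. SULT6B1, also outside this order and sum, stood at 2.05 ± 0.0884 and 2.01 ± 0.192. As most reads of SULT1A3 and SULT1A4 cannot be told apart, the level and share of SULT1A3 cannot be credited to that gene alone.

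The order at the top and the shares rested on the gene length that was used. The table gives SULT1A1 a length of 8909 bases, against 1871 bases for its longest protein-coding transcript in GENCODE 29, and SULT1C2 a length of 8399 against 2828. On the length of the longest protein-coding transcript, SULT1A1 came first in control too, at 10.5 ± 1.30 RPKM against 5.97 ± 1.02 for SULT1A3, and SULT2B1 and SULT1A2 overlapped in control. With 25(OH)D, SULT1A1 stood at 31.3 ± 1.18, SULT2B1 at 6.64 ± 0.177 and SULT1C2 at 1.32 ± 0.154 RPKM on this scale. Shares of the summed level were then 57.0% ± 0.976 in control and 66.5% ± 1.72 with 25(OH)D for SULT1A1, 32.1% ± 1.64 and 12.6% ± 0.448 for SULT1A3, 5.16% ± 1.52 and 14.1% ± 0.542 for SULT2B1, and 2.81% ± 0.371 with 25(OH)D for SULT1C2. The comparison of 1 gene between groups does not depend on the length.

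**Figure D2:**
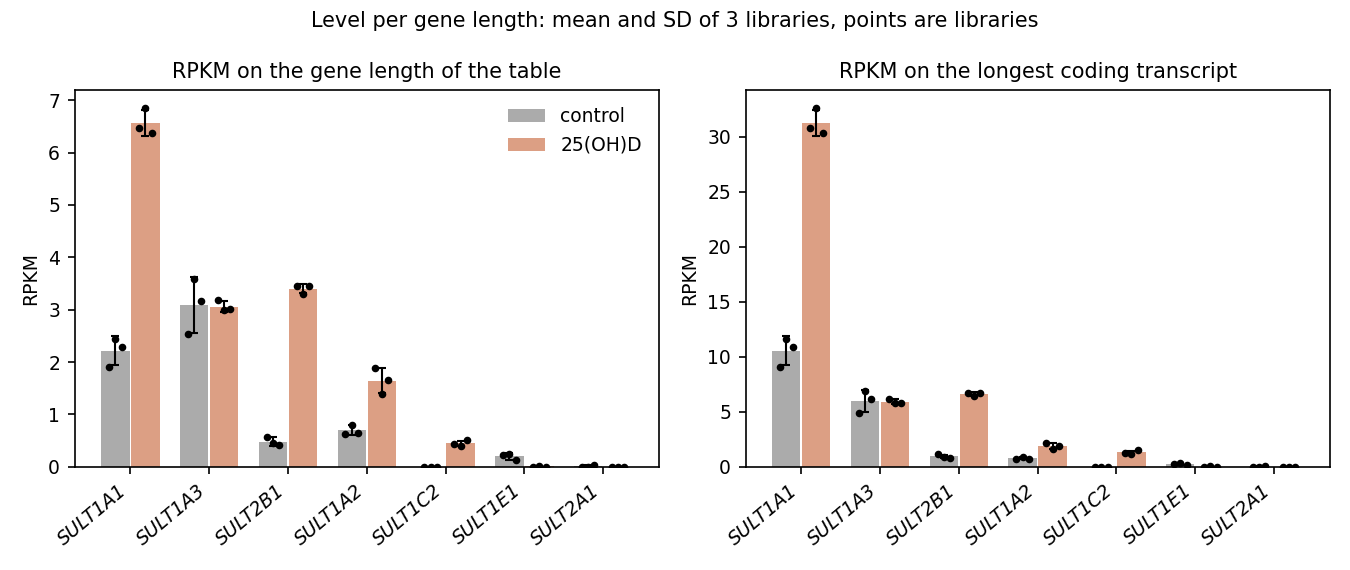
RPKM of the 7 members with a row, in control (grey) and 25(OH)D (orange), on the gene length of the table (left) and on the longest protein-coding transcript of GENCODE 29 (right). Bars are means of 3 libraries with SD and points are libraries. SULT1A3 exceeds SULT1A1 in control on the left scale only, and SULT2B1 exceeds SULT1A3 with 25(OH)D on both.

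The promoter of SULT1C2 is shown because it held the only DR3 match with at most 1 mismatch among the promoters of the family that could be read. Windows from 250 bases before to 50 bases after each RefSeq start (GRCh38.p14) were searched on both strands for the half-site AGGTCA, also with G as the first letter, T as the third or G as the fifth, and for DR3, 2 half-sites in the same direction with 3 bases between them. The window of SULT1C2 held 5 half-sites and 1 DR3 with 1 mismatch, on the plus strand 109 to 95 bases before the RefSeq start. This window begins at 108288645, past the start of SULT1C2 in the count table at 108288639. The match therefore lies within the gene span given above. It is in chr2:108288779-108288808, printed with the match in capitals.
SULT1C2: gcagtcaGGGTCACATGAGTGAtcatggta
A DR3 with at most 1 mismatch was held by 5.29% of all 35116 promoter windows, a DR3 without mismatch by 0.251%, and 4 or more half-sites by 3.41%. SULT2A1 held 5 half-sites, SULT1C3 and SULT1B1 held 2 each, SULT2B1, SULT1A3 and SULT1A4 held 1 each, and SULT1E1, SULT1C4 and SULT6B1 held 0 in this window. SULT1A1, SULT1A2 and SULT4A1 were not in the table of promoters. Such a match is a run of letters, and binding was not measured in these libraries.

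Of the 12 listed genes that start within 500 kb of SULT1C2, 6 passed the filter, 0 were called higher and 1 was called lower. Over all genes tested, 17.3% were called higher and 16.5% lower, so these counts among 6 genes do not set the region apart. The nearest gene tested, GCC2, which encodes a Golgi coiled-coil protein and starts 160 kb away, had 5751, 5554 and 5200 counts in control and 5045, 5516 and 4640 with 25(OH)D (log2 fold change 0.01, SE 0.0406). RANBP2, a nucleoporin gene 431 kb away, had a log2 fold change of 0.01 (SE 0.0377), LIMS1 of -0.18 (SE 0.0749, adjusted p = 0.0880), GCC2-AS1 of -0.14 (SE 0.375) and RGPD4 of 0.27 (SE 0.447). CCDC138, 498 kb away, fell by 0.39 on the log2 scale (SE 0.112, adjusted p = 0.0152). The other 6, AC009963.5, AC009963.6, SLC5A7, SULT1C2P1, LIMS1-AS1 and RPL10P5, had at most 5 counts in any library. Of these, LIMS1-AS1 had 1, 1 and 0 counts in control and 5, 3 and 3 with 25(OH)D. SULT1C3 and SULT1C4, which flank SULT1C2 in GENCODE 29, had no row in the table used here.

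**Figure D3:**
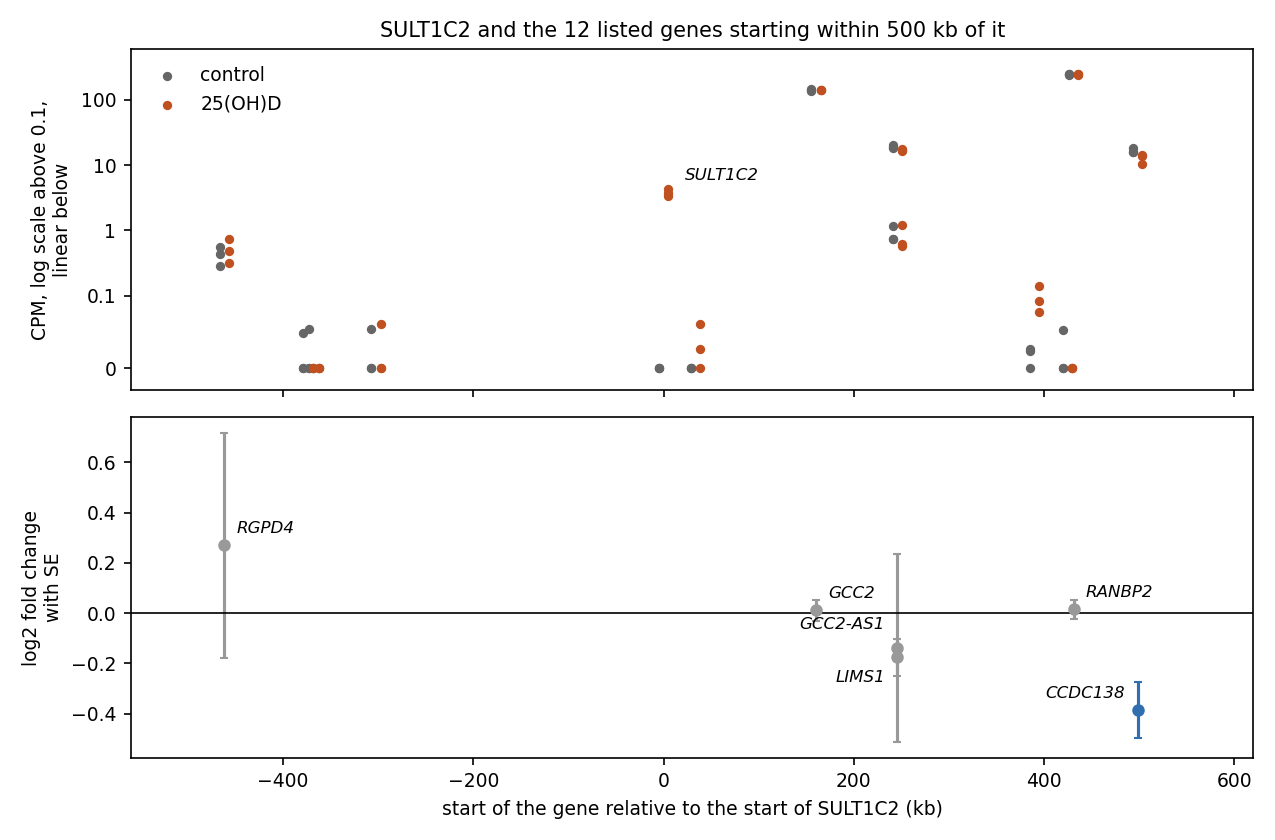
SULT1C2 and the 12 listed genes that start within 500 kb of it, by the distance of their start from that of SULT1C2 in kb. The upper panel gives CPM in each library, on a log axis above 0.1 and a linear one below, and the lower panel the edgeR log2 fold change with its SE for the 6 genes tested, with the gene called lower in blue. SULT1C2 goes from 0 in control to about 3.79 CPM with 25(OH)D, while the genes tested lie between -0.39 and 0.27 on the log2 scale.

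The 5 genes whose pattern over the 6 libraries was most like that of SULT1C2 were ABCA4, IQCA1-AS1, TNNI2, BGN and H19, by the Euclidean distance between centred log2 CPM values (0.48, 0.49, 0.62, 0.80 and 0.84) among 13851 genes. ABCA4, a lipid transporter known from the retina, had 22, 20 and 26 counts in control and 1322, 1593 and 1304 with 25(OH)D. TNNI2, a troponin subunit of fast skeletal muscle, had 0, 0 and 0 in control and 96, 101 and 89 with 25(OH)D, which was at least 34.7-fold higher against 3 counts in each control library. IQCA1-AS1, an antisense gene, had 0, 0 and 0 in control and 120, 115 and 94 with 25(OH)D, at least 39.9-fold higher. BGN, which encodes the matrix proteoglycan biglycan, went from 14, 9 and 18 counts to 1085, 1356 and 956. H19, an imprinted long noncoding RNA, went from 28, 25 and 34 to 1314, 1378 and 1258. These genes were picked for this likeness and carry no test.

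The donor of the sulfate group, PAPS, is made by the synthases PAPSS1 and PAPSS2, carried into the Golgi by SLC35B2 and SLC35B3, and its spent form is cleared by BPNT1 and IMPAD1. Of these 6 genes, all tested, 4 were higher and 0 lower with 25(OH)D, where 17.3% and 16.5% of all genes tested were. Their median log2 fold change was 0.23, against -0.01 over all genes tested. PAPSS2 rose from 17, 13 and 11 counts to 27, 42 and 45, a log2 fold change of 1.61 (SE 0.371, adjusted p = 0.00370). PAPSS1, the more abundant synthase, had 3292, 2528 and 2719 counts in control and 2974, 3297 and 2814 with 25(OH)D, and rose by a log2 fold change of 0.22 (SE 0.0580, adjusted p = 0.00798). IMPAD1 (log2 fold change 0.23, adjusted p = 0.00280) and SLC35B3 (0.38, adjusted p = 0.00992) also rose. SLC35B2 at 0.08 (adjusted p = 0.665) and BPNT1 at -0.03 (adjusted p = 0.800) were not called. PAPSS2 was the member of this group past the fold limit.

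Sulfate itself enters through membrane transporters or comes from the sulfur of cysteine. Of 10 transporter genes, 5 were tested, with 1 higher, 0 lower and a median of 0.21. The share higher, 20%, was near the 17.3% of all genes tested, of which 16.5% were lower. The gene called higher was SLC26A2, a widely used sulfate transporter, with 20, 6 and 14 counts in control and 32, 27 and 27 with 25(OH)D. Its control libraries alone would not have passed the low-count filter, with 0.159 CPM in control replicate 2 against a cutoff of 0.271 CPM. Its values are therefore a description without a test. The call was lost with DESeq2, with limma on RPKM and when any library but control replicate 1 was left out. Of 10 genes on the route from cysteine to sulfate, 9 were tested, with 3 higher (33.3%), 0 lower and a median of 0.20. TST, a mitochondrial enzyme that transfers sulfur from thiosulfate, rose from 180, 129 and 95 counts to 287, 409 and 263 (log2 fold change 1.38, SE 0.175, adjusted p = 2.53e-05). MPST, which takes sulfur from mercaptopyruvate (0.41, adjusted p = 5.27e-04), and GOT2, a mitochondrial aminotransferase (0.25, adjusted p = 0.00171), rose less. SUOX, the sulfite oxidase that makes the sulfate, had a log2 fold change of 0.09 (adjusted p = 0.496).

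Sulfatases take sulfate groups off again, and 7 of the 13 genes tested of this list, which includes the sulfatase activators SUMF1 and SUMF2, were higher and 0 lower, with a median of 0.28. Among all genes tested, 17.3% were higher and 16.5% lower. SULF1, a secreted enzyme that removes sulfate from heparan sulfate chains, had 8, 5 and 0 counts in control and 135, 102 and 96 with 25(OH)D. It is among the 7, but passed the low-count filter only through the 25(OH)D group, so its values are a description without a test. The lysosomal sulfatase ARSA rose from 230, 227 and 230 to 413, 510 and 405 counts (log2 fold change 1.08, SE 0.102, adjusted p = 1.32e-06), and ARSG (0.40, adjusted p = 5.00e-05) and SUMF1 (0.64, adjusted p = 1.09e-04) rose by less. STS, the steroid sulfatase that reverses the reaction of SULT1E1 and SULT2A1, had 4466, 3894 and 3840 counts in control and 3644, 3729 and 3317 with 25(OH)D, and its CPM values overlapped (log2 fold change -0.06, adjusted p = 0.365).

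The sulfotransferases of the Golgi use the same donor on proteins and sugar chains. Of 37 such genes, 20 were tested, with 7 higher (35%) and 3 lower (15%) and a median of 0.08. Among all genes tested, 17.3% were higher and 16.5% lower, so the share lower was near that of all genes. CHST1, which sulfates keratan chains, rose from 354, 289 and 285 counts to 1570, 1854 and 1620 (log2 fold change 2.58, SE 0.0753, adjusted p = 3.85e-12). The heparan sulfate enzymes HS6ST3 (1.10, adjusted p = 2.73e-08) and HS6ST1 (0.69, adjusted p = 1.47e-06) rose too. NDST4, another heparan sulfate enzyme, was at 0, 0 and 0 in control and at 36, 40 and 33 with 25(OH)D, at least 13.2-fold higher against 3 counts in each control library. Lower with 25(OH)D were CHST15 at -0.40 (adjusted p = 4.00e-04) and the tyrosylprotein sulfotransferase TPST2 at -0.64 (adjusted p = 0.00150). HS3ST3B1 had 32, 30 and 24 counts in control and 4, 2 and 8 with 25(OH)D. NDST4 and HS3ST3B1 are among the 7 and the 3, but each passed the low-count filter only through the group in which it was high, so their values are a description without a test. GAL3ST2, also among the 7, had 12, 12 and 3 counts in control and 39, 37 and 45 with 25(OH)D. Its control libraries alone would not have passed the filter, so it too is a description.

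Glucuronidation is the other main conjugation of phenols and steroids, and most of its rows tested were lower, all of them from the UGT1A locus. Of 22 UDP-glucuronosyltransferase genes, 13 were tested, with 1 higher and 9 lower and a median log2 fold change of -1.15. Among all genes tested, 17.3% were higher and 16.5% lower. All 9 that were lower were UGT1A rows, which share the exons of one locus and had nearly the same counts, between 523 and 639 in control and between 192 and 280 with 25(OH)D. UGT1A8 and UGT1A9 had the same count in every library, so the 9 rows are in large part 1 measurement. UGT1A6, for example, had 639, 633 and 623 counts in control and 245, 253 and 280 with 25(OH)D (log2 fold change -1.15, SE 0.107, adjusted p = 1.13e-06), and UGT1A1, the bilirubin enzyme, had -1.11 (adjusted p = 1.84e-06). UGT1A4 at -1.18 (adjusted p = 1.86e-06) and UGT1A10 at -1.17 (adjusted p = 2.01e-06) differed little from these. UGT2B15, a steroid glucuronidating enzyme, had 6, 6 and 6 counts in control and 16, 16 and 10 with 25(OH)D, and it too passed the filter only through the group in which it was high. Its call was lost when any single library was left out.

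Nuclear receptors known to act on SULT genes were measured beside them. Of 11 such genes, 7 were tested, with 3 higher and 2 lower and a median of 0.04. Among all genes tested, 17.3% were higher and 16.5% lower, and counts among 7 genes carry no test. VDR, the vitamin D receptor, had 3401, 3041 and 2960 counts in control and 4883, 5178 and 4131 with 25(OH)D (log2 fold change 0.72, SE 0.0458, adjusted p = 1.94e-08). PPARA (0.88, adjusted p = 1.74e-05) and ESRRA (0.59, adjusted p = 1.08e-04) rose as well. RORA at -0.62 (adjusted p = 0.00322) and RXRA, a partner of VDR, at -0.37 (adjusted p = 0.00429) were lower. All 7 receptors stayed within an absolute log2 fold change of 1.

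**Figure D4:**
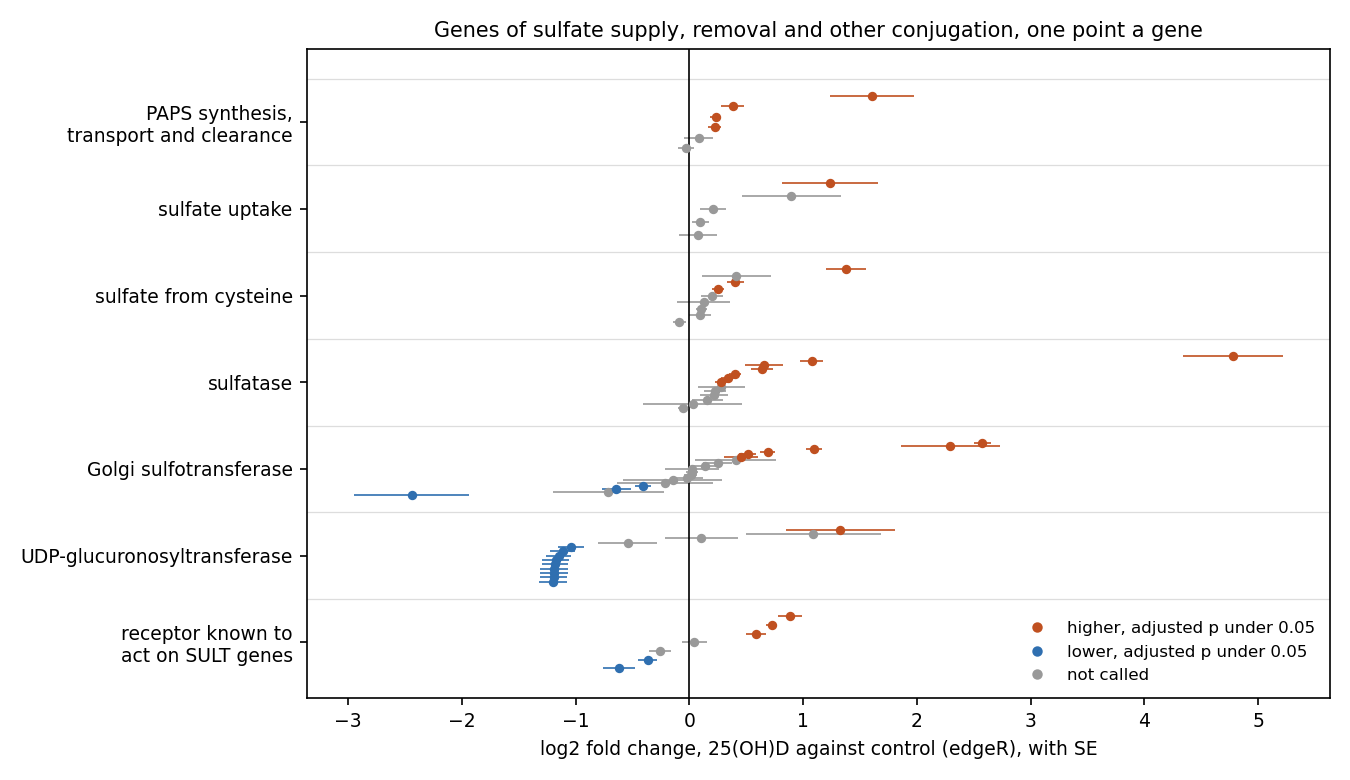
Log2 fold change of 25(OH)D against control with its SE, from the edgeR fit across all genes, for the genes tested of 7 lists, with 1 point a gene. Orange points were called higher and blue points lower at an adjusted p under 0.05, and NDST4, at 0 in control, is left out. SULF1, HS3ST3B1 and UGT2B15 passed the low-count filter only through the group in which they were high. SLC26A2 and GAL3ST2 would not have passed it on their control libraries alone. The sulfatase, PAPS, sulfate uptake and sulfate from cysteine lists hold no gene called lower, where 16.5% of all genes tested were. The UGT1A rows form the blue group near -1.15.

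The libraries matched the cell line. All 7 line markers, FOXA1, ERBB2, FGFR4, PIP, KRT8, KRT18 and EPCAM, had between 146 and 70501 counts in each library, and ESR1 and PGR had between 0 and 8. Of 10 markers of leukocytes, fibroblasts, endothelium and hepatocytes, 9 had a row, and their summed level was 36.9 to 39.4 CPM in control and 32.5 to 35.6 CPM with 25(OH)D. COL1A1 made up nearly all of it, with 1119 to 1604 counts a library, while no other of these markers exceeded 22 counts and CD3E was at 0 in 5 of 6 libraries. Mitochondrial genes took 7.85% to 7.99% of the counts in control and 8.89% to 9.24% with 25(OH)D, and their part in the differences above was not tested. Between replicates of each group, chi-square values per gene were 3.98 to 12.2, which is more than sampling of independent counts would give. The part of this that comes from mates counted separately or from scaling by library totals was not tested.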

How the data were processed

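The labels put 3 libraries in each group. The authors deposited raw counts of reads per gene without normalization, and RPKM made from them. Each RPKM equalled count over length and library total in all 200706 values. The submitters' processing notes name Trimmomatic 0.36, featureCounts, Subread 1.5.1, edgeR 3.12.1 and GRCh38. The aligner, annotation release and strand setting are not given in the sources used here.

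Counts were scaled by TMM and fitted with edgeR 4.0.16 (R 4.3.3), with its default low-count filter (minimum count 10) and the quasi-likelihood test without covariates. P-values were Benjamini-Hochberg adjusted over all 18183 genes tested. SE is the log2 fold change over the root of F. Groups with 3 or fewer counts in every library were compared with 3 counts per library. Alternatives were DESeq2 1.42.0, limma 3.58.1 on log2(RPKM + 1) and log2(RPKM + 0.1), another scaling, no filter, a replicate block and the omission of each library. Sequence came from GENCODE 29 and from the RefSeq promoter table, which held 10 of the 13 SULT genes with a coding sequence. Log2 CPM used a prior count of 2.

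The members and lists were chosen with earlier results of these data known. Named are all members and other family genes, the genes within 500 kb of SULT1C2, the 5 genes most like it and, per list, up to 4 genes of smallest p in each direction. SLC35B2, BPNT1, SUOX, STS, GAL3ST2 and RP11-666O2.4 were named besides these after their values were seen. Some genes of the lists are not reported here, and the lists are counted without them.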

Additional observations from a re-analysis of the deposited data

How the results depend on the processing

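Of 296 recomputed values of 22 results, 265 kept their direction, their side of the threshold or their size. This total includes lists with 0 genes lower in every run, and values that kept their direction while their size moved much. SULT1A1, SULT1A2 and SULT2B1 stayed called in their direction in every alternative run. With single libraries left out, the log2 fold change lay between 1.52 and 1.69 for SULT1A1, between 1.18 and 1.40 for SULT1A2 and between 2.77 and 3.02 for SULT2B1. SULT1E1, which passed the filter through control alone and carries no test, lay between -7.04 and -3.84, with -7.04 coming without 25(OH)D replicate 2, the library with its only counts under 25(OH)D. Limma on log2(RPKM + 1), which understates low genes by construction, gave 0.64 for SULT1A2, 1.58 for SULT2B1 and -0.25 for SULT1E1. The sign of SULT1A3 turned with library sizes alone (-0.013), limma on log2(RPKM + 1) (-0.0037) and on log2(RPKM + 0.1) (-0.0017), and across omissions of single libraries it ranged from -0.093, without control replicate 1, to 0.15. The bound for SULT1C2 was 47.4 with library sizes alone, and no bound was computed under the other alternatives.

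With the unadjusted p and the fold limit of 1, the rule of the study, 731 genes were higher and 478 lower in the fit used here. The study itself reported fewer genes in each direction. Under this rule the counts higher were 1 for PAPS, 1 for sulfate from cysteine, 2 for sulfatases, 4 for Golgi sulfotransferases (1 lower) and 0 for the receptors (0 lower), since most of their changes were under that limit. The 1 sulfate uptake gene became 0 with DESeq2 and with limma on RPKM at either pseudocount, and ranged from 0 to 1 with libraries left out. The 1 glucuronosyltransferase higher became 0 with DESeq2, with library sizes alone, without a filter, with the replicate block and in every omission of a library (range 0 to 0). The cause was not tested.

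The replicate numbers did not pair the samples (correlations of deviations -0.072, -0.012 and -0.046). With the replicate number as a block, SULT1A1 was at 1.62, SULT1A2 at 1.28 and SULT2B1 at 2.87 on the log2 scale, all still called, and 3057 genes were higher and 2896 lower. Depth limits SULT1E1, SULT2A1 and the control level of SULT1C2, where a few counts decide the value.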
